A study of Sus scrofa with 8 samples.

Results

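The genes described here are 9 genes of calcium cycling between the sarcoplasmic reticulum and the cytosol of heart muscle: RYR2, ATP2A2, PLN, CASQ2, TRDN, SLC8A1, JPH2, HRC and CAMK2D. They were chosen by name from a table of 18975 genes with FPKM (fragments per kilobase of transcript and of 1000000 mapped fragments). The table names 7 of them, and TRDN was added by its Ensembl ID, so that 8 of the 9 genes have values. ATP2A2, the calcium pump of the sarcoplasmic reticulum, was not analysed here.

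RNA was measured by RNA-seq in hearts of Tibetan pigs raised in the highland (TH), Tibetan pigs raised in the lowland (TL), Yorkshire pigs raised in the highland (YH) and Yorkshire pigs raised in the lowland (YL), at 3000 m and 100 m. All pigs were 6 months old and labelled male, without treatment. Each of the 4 groups has 2 libraries, and each library is a pool of RNA of 4 pigs, so the spread between libraries is that of pools and not of single pigs. The place in the heart from which tissue was taken is not given in the sources used here.

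In heart muscle, calcium that enters through the L-type channel opens the ryanodine receptor RYR2, and calcium stored on calsequestrin (CASQ2) leaves the sarcoplasmic reticulum and starts contraction. In relaxation the pump ATP2A2 returns calcium to the store, held back by phospholamban (PLN) until PLN is phosphorylated, and the sodium-calcium exchanger SLC8A1 carries calcium out of the cell. The kinase CAMK2D phosphorylates both RYR2 and PLN, while junctophilin 2 (JPH2) holds the store membrane against the cell membrane and triadin (TRDN) ties CASQ2 to RYR2.

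The 8 libraries hold 15687000 to 26722000 reads on genes, of which 10183000 to 15757000 lie on nuclear genes. Mitochondrial genes hold 87.6% of the FPKM sum in TH1, 57.7% in YH2 and 70% to 80.3% in the other libraries, and TH1 has the fewest genes at 1 FPKM or more (10233 against 10661 to 12027). The part of these differences in the results on TH and YH was not tested. Cardiomyocyte sarcomere markers (10 of 12 with values) sum to 34027 to 56984 FPKM in 7 libraries and to 18396 FPKM in YL2. In YL2, 8 of these 10 markers are at their lowest, and 13 of 13 kidney markers are at their highest, with a sum of 10036 FPKM against 0.259 to 17 FPKM in the other libraries. YL2 thus holds kidney markers beside those of heart, and comparisons with YL are given below with and without it. All 8 libraries share 1 estimate of the spread, so leaving out a YL library also changes the errors of comparisons that do not use YL. Atrial markers (10 of 12 with values) sum to 6846 and 5621 FPKM in TH and to 507 to 2887 FPKM in the other 6 libraries. In TH nearly all of this comes from NPPA (2263 and 2146 FPKM) and MYL7 (4283 and 3207 FPKM), both higher than in the other 6. SLN was also higher in both TH libraries, and MYH6 was lower than in TL, YH and YL1. MYL4, NR2F2, PAM, KCNJ3, DKK3 and STARD10 overlapped between TH and the others. Smooth muscle markers (5 of 6 with values) sum to 369 and 335 FPKM in TH and to 108 to 242 FPKM in the others. Of these, TAGLN and CNN1 were higher in both TH libraries than in the other 6, ACTA2 and SMTN overlapped, and MYH11 was at 0.388 and 2.69 FPKM in TH and 1.88 to 4.87 FPKM elsewhere. Blood and immune markers (8 of 8) sum to 3097 and 1640 FPKM in TH and to 534 to 1406 FPKM in the others, nearly all from the hemoglobin genes HBB (1708 and 876 FPKM in TH, 290 to 649 FPKM elsewhere) and HBA (1376 and 745 FPKM in TH, 231 to 754 FPKM elsewhere). The immune cell markers PTPRC (1.29 and 1.41 FPKM) and CD3E (1.69 and 0.858 FPKM) were instead lower in both TH libraries than in the other 6 (1.98 to 6.19 and 1.83 to 9.08 FPKM). Skeletal muscle markers (5 of 11 with values) sum to 3.82 and 4.04 FPKM in TH, mostly from TNNC2, and to 0.546 to 1.34 FPKM in the others. The endothelial genes PECAM1 and CLDN5 and the sarcomere gene DES were higher in both TH libraries than in the other 6. The other endothelial markers overlapped, and MYOM2 and MYBPC3 of the sarcomere were lower in TH than in TL, YH and YL1. The part of these markers in the results on TH was not tested. In bulk RNA, fewer cells of a type and less RNA per cell cannot be told apart.

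The members differed widely in level. PLN was the most abundant, with a mean of 1524 FPKM over the 8 libraries, and its lowest library (822 FPKM) was above the highest library of any other member. CASQ2 (mean 178 FPKM), HRC (144 FPKM), CAMK2D (136 FPKM), TRDN (102 FPKM) and JPH2 (96.8 FPKM) followed, and the ranges of these 5 genes overlap, so their order is not fixed by these libraries. RYR2 (44.7 FPKM) was below JPH2 in every library. SLC8A1 was lowest, at 16.3 FPKM, and rests on 4 to 40 reads per library, while the other 7 members have 876 to 20341 reads. Its annotated model is so short that 1 read is worth 214 times as many FPKM as for RYR2, and its level on this scale is therefore uncertain.

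**Figure D1:**
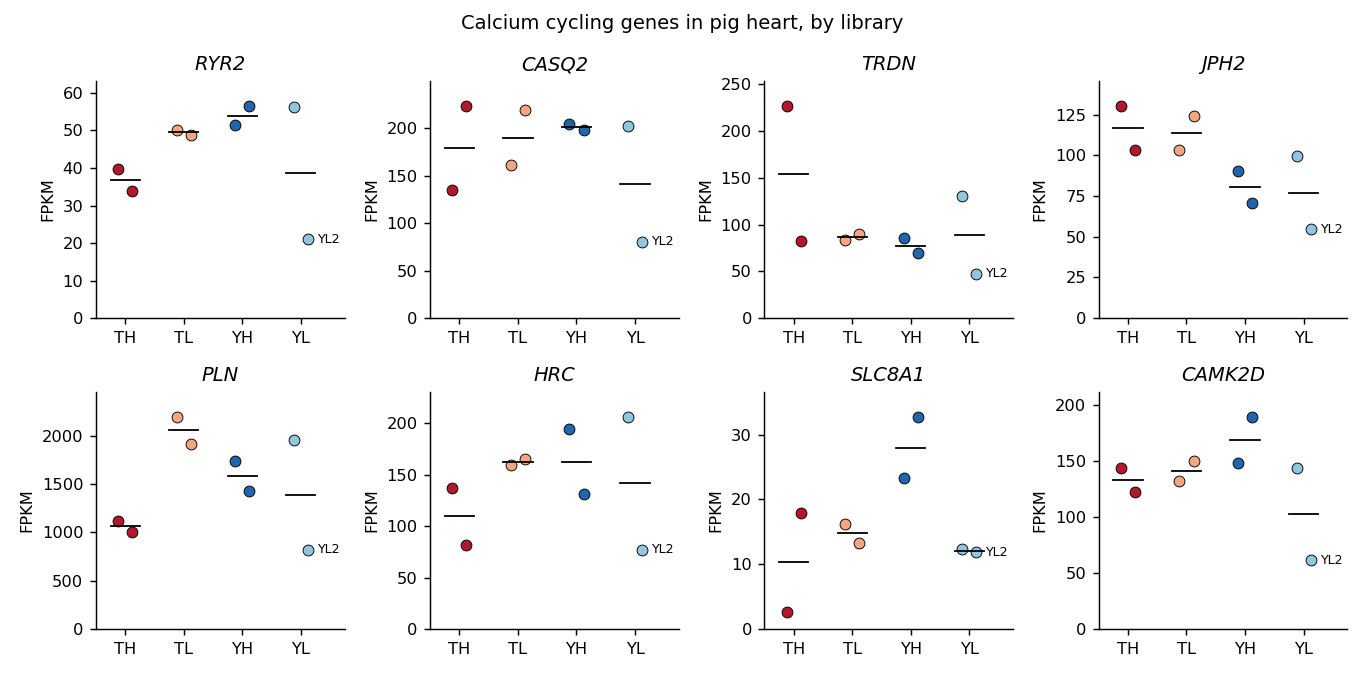
FPKM (linear axis from 0) of the 8 members with values in each of the 8 libraries, by group (TH, TL, YH, YL). Points are libraries and bars are means of 2 libraries; YL2 is marked, and is the lowest library for 7 of the 8 genes.

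The release channel RYR2 (ENSSSCG00000010142, chr14:57572532-57938291, Sscrofa10.2) was at 39.8 and 33.9 FPKM (TH), 50.2 and 48.9 (TL), 51.4 and 56.4 (YH), 56.2 and 21.0 (YL). Both TH libraries were below the TL and YH libraries and below YL1, and YL2 was the lowest of all. The group means were 36.9 ± 4.21 (SD, n = 2) in TH, 49.5 ± 0.946 (SD, n = 2) in TL, 53.9 ± 3.54 (SD, n = 2) in YH and 38.6 ± 24.9 (SD, n = 2) in YL.

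CASQ2 (ENSSSCG00000006745, chr4:115007631-115070760), the calcium buffer of the store, was at 135 and 223 FPKM (TH), 161 and 219 (TL), 204 and 198 (YH), 202 and 80.5 (YL). Without YL2 the groups overlap, and the TH libraries span the range of the others. TRDN (ENSSSCG00000027613, chr1:43484627-43531456) was at 226 and 82.6 FPKM (TH), 83.3 and 89.7 (TL), 85.6 and 69.4 (YH), 130 and 47.7 (YL). TH1 alone stood high for TRDN, with 4089 reads against 876 to 1864 in the other libraries, while TH2 lay among the TL and YH libraries. The TRDN to CASQ2 ratio was thus 1.67 in TH1 and 0.35 to 0.643 elsewhere.

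JPH2 (ENSSSCG00000007369, chr17:51872899-52042154) was at 130 and 103 FPKM (TH), 103 and 124 (TL), 90.3 and 70.9 (YH), 99.5 and 54.5 (YL). In FPKM all 4 Tibetan libraries were above all 4 Yorkshire libraries, although YL1 was close to the lower Tibetan values. On the authors' scaled reads, which hold no length term, YL1 was above TH2 and TL1. The JPH2 locus overlaps the rows of TOX2 and of a gene with no symbol, which have mean levels of 0.0477 and 0.0701 FPKM.

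PLN (ENSSSCG00000004248, chr1:48621906-48789033), the inhibitor of the pump, was at 1121 and 1006 FPKM (TH), 2195 and 1919 (TL), 1741 and 1427 (YH), 1960 and 822 (YL). As for RYR2, both TH libraries were below the TL and YH libraries and YL1 in FPKM. On the scaled reads TH1 was above YH2 for PLN. Group means were 1063 ± 80.9 (SD, n = 2) in TH, 2057 ± 195 (SD, n = 2) in TL, 1584 ± 222 (SD, n = 2) in YH and 1391 ± 804 (SD, n = 2) in YL. The PLN locus overlaps the row of CEP85L, which has a mean of 0.588 FPKM.

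HRC (ENSSSCG00000003156, chr6:49986779-49990919), a histidine-rich calcium-binding protein inside the store, was at 137 and 81.9 FPKM (TH), 159 and 165 (TL), 194 and 131 (YH), 206 and 77.2 (YL). Both TH libraries were below both TL libraries, and TH1 lay inside the YH range. CAMK2D (ENSSSCG00000009123, chr8:116955004-117260328) was at 144 and 122 FPKM (TH), 132 and 150 (TL), 148 and 189 (YH), 144 and 61.6 (YL). Apart from YL2 it varied least of the members, by 1.55-fold between the lowest and the highest library.

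SLC8A1 (ENSSSCG00000030512, chr3:106269291-106282933) was at 2.66 and 17.9 FPKM (TH), 16.2 and 13.3 (TL), 23.3 and 32.7 (YH), 12.3 and 11.8 (YL). Both YH libraries were above the other 6, and TH1 was far below the rest. The reads behind these values are 4 and 22 (TH), 27 and 25 (TL), 39 and 40 (YH), 18 and 32 (YL), so the TH1 value rests on 4 reads.

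YL2 was the lowest library for 7 of the 8 members, the exception being SLC8A1. Over all 11913 genes tested, 22.5% were lowest in YL2. In FPKM both TH libraries were below all TL and YH libraries for 2 members, RYR2 and PLN, a pattern that 15.9% of all genes tested show. On the scaled reads PLN did not show it.

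The question of TH vs. YH is how the breeds differ in the highland. RYR2, PLN, HRC, CAMK2D, CASQ2 and SLC8A1 were at lower mean levels in TH, and JPH2 and TRDN at higher ones, but no member passed the test. With limma on log2(FPKM + 1), 0 of the 8 members were called, which needed a log2 change beyond 1 and an adjusted p under 0.01, where 0.0336% of all genes tested were called. At an unadjusted p under 0.05, without a limit on the fold, the count was 1 (16.2% of all genes tested). That gene is SLC8A1, with a log2 fold change of -1.78 ± 0.68 (SE) and an adjusted p of 0.277 (limma). RYR2 differed by -0.54 ± 0.42 (SE) and PLN by -0.57 ± 0.45 (SE) on the log2(FPKM + 1) scale, with adjusted p of 0.551 and 0.555 (limma). Without YL2 the values were the same, with SE of 0.18 and 0.26 and adjusted p of 0.164 and 0.260 (limma), and 2 members, RYR2 and SLC8A1, reached an unadjusted p under 0.05 where 11.8% of all genes tested did so with lower values in TH. Leaving out YL1 instead gave the same SE for both genes. HRC differed by -0.59 ± 0.50 (SE), CAMK2D by -0.33 ± 0.40 (SE) and CASQ2 by -0.21 ± 0.47 (SE), while JPH2 differed by 0.52 ± 0.34 (SE) and TRDN by 0.82 ± 0.59 (SE). In FPKM the libraries of TH and YH did not overlap for 5 members, lower in TH for RYR2, PLN, SLC8A1 and CAMK2D (27.3% of all genes tested) and higher for JPH2 (25.2%). On the scaled reads PLN and CAMK2D overlapped, with TH1 above YH2 for PLN and above YH1 for CAMK2D. The median over the members was -0.44, and over all genes tested it was -0.03.

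Most of these differences depend on single libraries, on the scale or on both. Without TH1 the difference of SLC8A1 was -0.60, and without TH2 it was -2.97. TRDN differed by 0.10 without TH1 and by 1.54 without TH2, and CASQ2 by 0.15 and -0.57. HRC differed by -0.95 without TH1, -0.22 without TH2 and -0.30 without YH1. For CAMK2D the values without single libraries were -0.51 (without YH1) to -0.16 (without YH2), and -0.22 without TH2. JPH2 was at 0.35 without TH1 or without YH2, while RYR2 stayed within -0.65 to -0.43 and PLN within -0.71 to -0.43. With the FPKM of each library set to a common sum, SLC8A1 differed by -1.98, RYR2 by -1.41, PLN by -1.55, HRC by -1.53, CAMK2D by -1.29, CASQ2 by -1.16, JPH2 by -0.44 and TRDN by -0.16. On that scale the median was -1.35 over the members and -0.50 over all genes tested, and no member was called in limma, with 3 lower at an unadjusted p under 0.05 (6.65% of all genes tested). The sums run from 1563940 FPKM (YL2) to 8559104 FPKM (TH1) and are 57.7% to 87.6% mitochondrial. The 1 of log2(FPKM + 1) was added after this scaling, and shrinks the changes of genes at low levels more than those of most members. The gap between the 2 medians is therefore no measure of the members alone. With the sarcomere markers set to a common level, an alternative added after the data were seen, RYR2 differed by -0.83, PLN by -0.87, HRC by -0.89, SLC8A1 by -2.0, CAMK2D by -0.63, CASQ2 by -0.51, JPH2 by 0.22 and TRDN by 0.52. The median was then -0.73 over the members and -0.25 over all genes tested. The first 4 of these genes reached an unadjusted p under 0.05, as 5.0% of all genes tested did with lower values in TH, and their adjusted p was 0.567 to 0.735 (limma). On the authors' scaled reads, which hold no length term, PLN differed by -0.22 between TH and YH, CAMK2D by -0.20, JPH2 by 0.31, HRC by -0.83 and TRDN by 1.24. In YH2, 1 scaled read of PLN was worth 0.169 FPKM against 0.104 to 0.123 FPKM in the other libraries, 1 of TRDN 0.092 FPKM against 0.0478 to 0.0631 FPKM, and 1 of SLC8A1 0.951 FPKM against 0.505 to 0.69 FPKM. For RYR2 and CAMK2D this worth was also highest in YH2, and for JPH2 and HRC it was lowest there. The part of this in the FPKM differences was not tested beyond the values on scaled reads.

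The comparison of TH vs. TL shows the same breed at both altitudes, and shares its TH libraries with the comparison above. PLN was at 0.518 times its TL level in TH in the fit, with a log2 fold change of -0.95 ± 0.45 (SE) and an adjusted p of 0.479 (limma). Without YL2 the SE of PLN was 0.26 and its adjusted p 0.163 (limma), and PLN reached an unadjusted p under 0.05, as 8.58% of all genes tested did with lower values in TH. HRC differed by -0.61 ± 0.50 (SE), RYR2 by -0.42 ± 0.42 (SE), SLC8A1 by -0.91 ± 0.68 (SE) and TRDN by 0.65 ± 0.59 (SE). In limma, 0 members were called (0.0504% of all genes tested) and 0 reached an unadjusted p under 0.05 (11.3% of all genes tested). Libraries did not overlap for RYR2, PLN and HRC, lower in TH, where 24.5% of all genes tested show this. JPH2, CAMK2D and CASQ2 had log2 fold changes of 0.03, -0.09 and -0.11. The sign of SLC8A1 and of TRDN rests on TH1, since without TH1 they differed by 0.27 and -0.06. HRC differed by -0.97 without TH1 and by -0.24 without TH2. With FPKM set to a common sum, PLN differed by -1.58, HRC by -1.21, RYR2 by -0.96 and TRDN by 0.02, with all genes tested at a median of -0.27. The 1 added after this scaling draws that median toward 0.

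**Figure D2:**
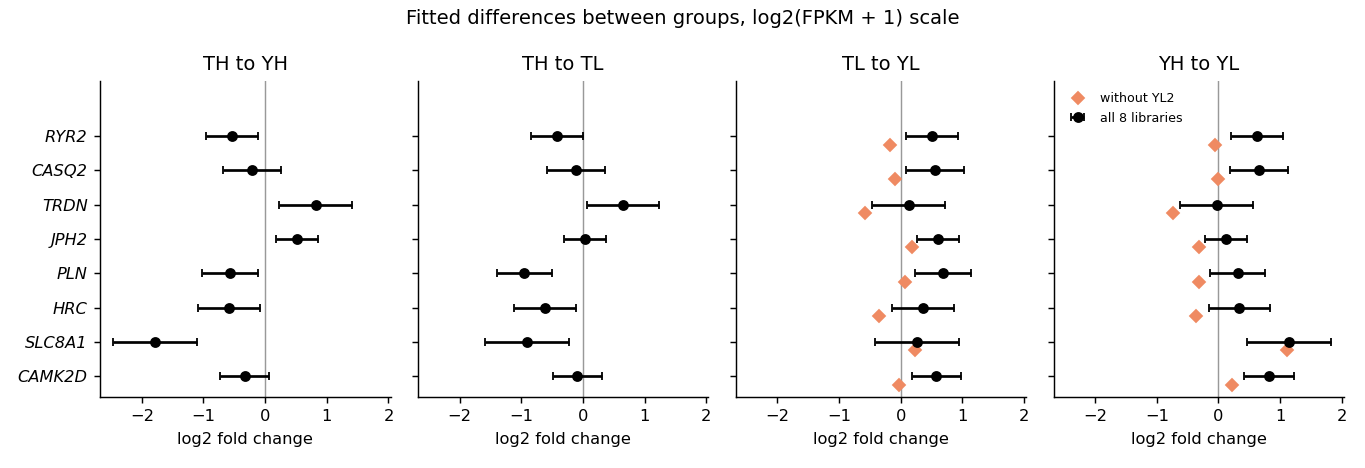
Fitted log2 fold changes (horizontal axis, log2(FPKM + 1) scale) of the 8 members in the 4 pairwise comparisons; black points are the fit of all 8 libraries with bars of 1 SE, and diamonds are the fit without YL2. In TL to YL and YH to YL most members move toward or past 0 when YL2 is left out.

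The comparisons with YL turn on YL2. In TL vs. YL all 8 members had positive log2 fold changes, with a median of 0.53 (0.02 over all genes tested), among them PLN at 0.69 ± 0.45 (SE), JPH2 at 0.61 ± 0.34 (SE), CAMK2D at 0.58 ± 0.40 (SE) and RYR2 at 0.51 ± 0.42 (SE). Without YL2 the median was -0.06, PLN differed by 0.07, JPH2 by 0.18, CAMK2D by -0.03 and RYR2 by -0.18. In limma, 0 members were called (0.00839% of all genes tested), and 0 reached an unadjusted p under 0.05 (8.94%). In FPKM, TL and YL did not overlap for JPH2 and SLC8A1, higher in TL (23.8% of all genes tested), while on the scaled reads both genes overlapped.

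In YH vs. YL the median over the members was 0.48 (0.03 over all genes tested) and -0.19 without YL2. CAMK2D differed by 0.82 ± 0.40 (SE), CASQ2 by 0.65 ± 0.47 (SE), RYR2 by 0.63 ± 0.42 (SE) and SLC8A1 by 1.14 ± 0.68 (SE). Without YL2 the first of these was 0.22, CASQ2 was at -0.01, RYR2 at -0.06 and SLC8A1 at 1.11. In limma, 0 members were called (0.00% of all genes tested) and 0 reached an unadjusted p under 0.05 (5.97%). In FPKM, YH and YL did not overlap for SLC8A1 and CAMK2D, higher in YH, as for 21.9% of all genes tested. When YL1 was left out instead, so that YL2 stood alone for its group, the adjusted p (limma) of RYR2 and CAMK2D was 0.0275 and 0.0493 in TL vs. YL and 0.0225 and 0.0301 in YH vs. YL. In that fit the spread comes from the other groups, YL2 is assumed to vary like them, and 305 genes in all were called in each of these comparisons, against 1 and 0 with all libraries.

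Across both altitudes, the member that separated the breeds in FPKM was JPH2. Its Tibetan libraries lay at 103 to 130 FPKM and its Yorkshire libraries at 54.5 to 99.5 FPKM, a pattern that 4.57% of all genes tested show in that direction. The log2 fold change was 0.57 ± 0.24 (SE) with an adjusted p of 0.370 (limma), higher in 4 of 4 Tibetan libraries, so the difference did not pass the correction. Without YL2 it was 0.35 ± 0.19 (SE), no longer at an unadjusted p under 0.05 (adjusted p = 0.407, limma), and without YL1 it was 0.78. With the FPKM of each library set to a common sum it was -0.08, where the median of all genes was -0.39, drawn toward 0 by the 1 added after scaling. On the scaled reads JPH2 did not separate the breeds, since YL1 was above TH2 and TL1. There 0 members reached an unadjusted p under 0.05 for breed (6.70% of all genes tested higher and 5.67% lower, limma). Averaged over the altitudes, 0 members were called in limma (0.0504% of all genes tested) and 1, JPH2, reached an unadjusted p under 0.05 (13.5%). Without YL2 the member that did so was RYR2, at -0.36 ± 0.15 (SE) with an adjusted p of 0.290 (limma), where 7.97% of all genes tested were lower at that p, against -0.01 ± 0.30 (SE) with all libraries. For altitude, averaged over the breeds, 0 members were called (0.0336%), 0 reached an unadjusted p under 0.05 (7.22%) and the libraries of no member separated (2.69%). PLN was at -0.32 ± 0.32 (SE) for altitude, and without YL2 at -0.63 ± 0.21 (SE), reaching an unadjusted p under 0.05, as 4.36% of all genes tested did with lower values in the highland, but an adjusted p of 0.444 (limma).

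The interaction subtracts the altitude difference of Yorkshire pigs from that of Tibetan pigs. In it, 7 of the 8 members were below 0, where 50.5% of all genes tested are, and the median was -0.93 against -0.01 over all genes tested. SLC8A1 was at -2.05 ± 0.96 (SE), PLN at -1.26 ± 0.63 (SE) and RYR2 at -1.05 ± 0.60 (SE), with adjusted p of 0.495, 0.516 and 0.548 (limma). No member was called (0.0336% of all genes tested), and 0 reached an unadjusted p under 0.05 (10.9%). The member above 0 was TRDN, at 0.69 ± 0.83 (SE). Without YL2 the median was -0.27, with PLN at -0.64, RYR2 at -0.36, SLC8A1 at -2.03 and TRDN at 1.40.

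Ratios within a library do not depend on how the library was scaled, but in FPKM the length term of each gene still enters them. The PLN to RYR2 ratio was 28.1 and 29.7 in TH, 33.9 and 25.3 in YH, 43.7 and 39.3 in TL, and 34.9 and 39.1 in YL. All 4 highland libraries were below all 4 lowland libraries, and YL2 lay among the other lowland libraries. The log2 ratio was lower in the highland by 0.43 (4.86 ± 0.17 against 5.29 ± 0.13, SD, n = 4), with p = 0.0286 in a two-sided exact permutation test, the smallest p that 4 against 4 libraries allow. Adjusted over the 12 ratio tests run, p was 0.343 (exact permutation test). This ratio and the HRC to RYR2 ratio were added after the data were seen. On scaled reads the difference was -0.49, and leaving out single libraries gave -0.50 to -0.36.

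The JPH2 to RYR2 ratio was 3.25 and 3.03 (TH), 2.05 and 2.53 (TL), 1.76 and 1.26 (YH), 1.77 and 2.59 (YL). Its log2 ratio was 0.58 higher in Tibetan pigs (p = 0.0857, adjusted p = 0.343, exact permutation test), and YL2 lay inside the Tibetan range. On scaled reads the difference was 0.39. The CAMK2D to RYR2 ratio was 3.61 and 3.6 in TH, 2.88 and 3.35 in YH, 2.64 and 3.07 in TL, and 2.56 and 2.93 in YL, and its log2 ratio was 0.26 higher in the highland (p = 0.0857, adjusted p = 0.343, exact permutation test). The highland and lowland libraries overlapped through YH1. The log2 HRC to RYR2 and CASQ2 to RYR2 ratios differed by -0.24 and 0.16 between the altitudes, with p of 0.343 and 0.657 (adjusted p of 0.891 and 0.926, exact permutation test).

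**Figure D3:**
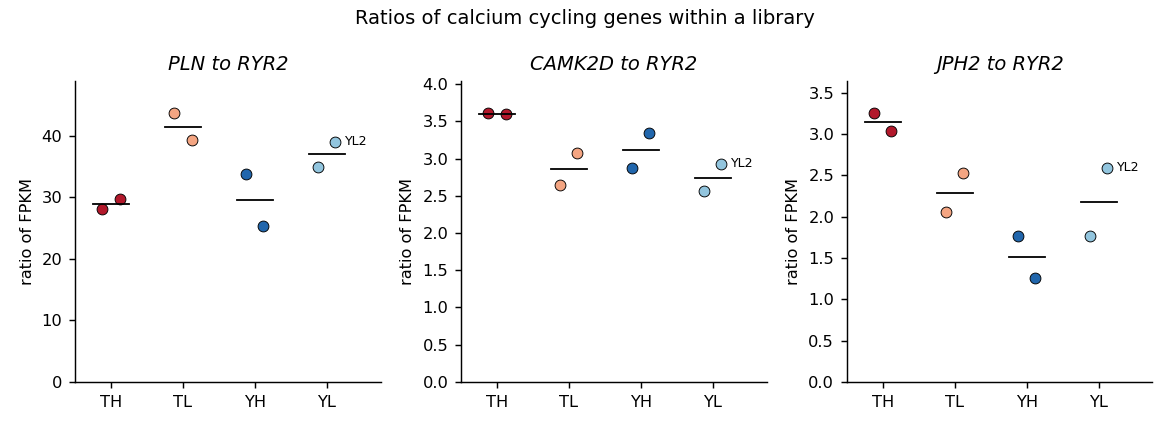
Ratio of FPKM (linear axis from 0) of PLN, CAMK2D and JPH2 to RYR2 in each library, by group; points are libraries and bars are means of 2 libraries. The PLN to RYR2 ratio is 25.3 to 33.9 in the highland groups TH and YH and 34.9 to 43.7 in the lowland groups TL and YL.

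The genes that act on the same steps were described from lists of names. Of 22 tested partners of the pump, the store and the release channel, 13 were higher and 9 lower in TH than in YH, 2 of them higher at an unadjusted p under 0.05 (7.71% of all genes tested), with a median of 0.02. The most abundant were S100A1 (713 to 2096 FPKM), a calcium-binding protein that acts on RYR2 and the pump, the calcium sensor CALM2 (213 to 309 FPKM), and the chaperones CALR (89.6 to 265 FPKM) and HSP90B1 (93.8 to 149 FPKM). S100A1 and CALM2 overlapped between TH and YH, while both chaperones were higher in both TH libraries than in both YH libraries, as were 5 of the 22 genes and 25.2% of all genes tested.

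Sarcolipin (SLN), a small inhibitor of the pump like PLN and a gene of atrial muscle, was picked out after its values were seen. SLN was at 56.5 and 16.3 FPKM (TH), 0.812 and 1.69 (TL), 2.11 and 2.33 (YH), 2.74 and 3.52 (YL). Both TH libraries were above the other 6, in which PLN was higher except in YL2. The log2 fold change of SLN was 3.29 ± 0.53 (SE) in TH vs. YH and 3.84 ± 0.53 (SE) in TH vs. TL, with adjusted p of 0.0761 and 0.0878 (limma), so SLN was not called. Without TH1 the log2 fold changes were 2.43 and 2.97 and the adjusted p (limma) 0.166 and 0.162, and without TH2 they were 4.16 and 4.70 with adjusted p of 0.0324 and 0.0217, in fits where the other groups give the spread. Over all libraries left out in turn, the adjusted p of SLN (limma) reached 0.471 and 0.590. NPPA, another atrial marker, was at 2263 and 2146 FPKM in TH and at 23.1 to 108 FPKM in the other libraries, whereas MYH6, atrial myosin, was at 20.6 and 18.4 FPKM in TH and at 75.1 to 246 FPKM in TL, YH and YL1. The part of atrial tissue in the differences of PLN, RYR2 and SLN was not tested.

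Of 22 tested kinases, phosphatases, phosphodiesterases and anchors that set the phosphorylation of RYR2 and PLN, 18 were lower in TH than in YH (52.3% of all genes tested were) and 7 were lower at an unadjusted p under 0.05 (8.47% of all genes tested), with 1 higher and a median of -0.56. In TH vs. TL, with the same TH libraries, 17 were lower, 9 of them at an unadjusted p under 0.05 (5.53%), with 1 higher at that p and a median of -0.72. In the comparisons with YL the list lay on the other side, with 18 of 22 higher and a median of 0.44 in TL vs. YL and 18 higher and a median of 0.43 in YH vs. YL. Without YL2 these medians were 0.10 and 0.14. For breed, averaged over the altitudes, 10 were higher and 12 lower with a median of -0.03, and without YL2 18 were lower with a median of -0.16. With FPKM set to a common sum all 22 were lower for breed, with a median of -0.46 where all genes were at -0.39. With sarcomere-marker scaling all 22 were lower as well, with a median of -0.44 where all genes were at -0.38. With sarcomere-marker scaling 13 were lower in TL vs. YL, with a median of -0.15 where all genes were at -0.49. In limma, none of the 22 was called in either comparison, and 0 had an adjusted p under 0.05 with all 8 libraries. Leaving out single libraries gave 1 to 9 genes lower at an unadjusted p under 0.05 in TH vs. YH (1 without YH1, 2 without TH1, and 4 without TL1, TL2 or YH2), and 2 to 9 in TH vs. TL, with 2 each without TH1, TL1 and TL2. In the same fits 3.82% to 15.9% of all genes tested were lower at that p in TH vs. YH (4.20% without YH1, which the 1 gene of 22 is near), and 2.47% to 12.3% in TH vs. TL. Medians ranged from -0.88 to -0.26 and from -0.91 to -0.35, and were nearest 0 without TH1. The part in these counts of the markers that moved with TH was not tested. Among them NPPA, MYL7, TAGLN, CNN1, HBB, DES, PECAM1, CLDN5 and TNNC2 were higher in TH, and PTPRC and CD3E lower.

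Among the most abundant of these, PPP1CB, a catalytic subunit of protein phosphatase 1, was at 90.8 to 161 FPKM, PRKAR1A, a regulatory subunit of protein kinase A, at 76.9 to 172 FPKM, and PRKACA, a catalytic subunit of the same kinase, at 46.1 to 89.8 FPKM. PRKACB, another catalytic subunit, was at 8.9 and 36.5 FPKM in TH and 36.8 to 68.7 FPKM in TL, YH and YL1, from 19 to 170 reads. The PRKACB libraries of TH were thus below those of TL, YH and YL1, but by little for TH2. CAMK2A, a close relative of CAMK2D, and PDE4B, a phosphodiesterase that breaks down cyclic AMP, were picked out after their values were seen. CAMK2A was at 13.7 and 20.2 FPKM (TH), 39.6 and 45.6 (TL), 55.1 and 43.6 (YH), 47 and 15.3 (YL), and reads of relatives of CAMK2D can be shared between them. It differed by -1.50 ± 0.49 (SE) in TH vs. YH and by -1.30 ± 0.49 (SE) in TH vs. TL (adjusted p of 0.230 and 0.387, limma). PDE4B was at 5.04 and 6.6 FPKM (TH), 14.7 and 14.7 (TL), 19.8 and 21.1 (YH), 14 and 6.24 (YL). It differed by -1.66 ± 0.35 (SE) and -1.21 ± 0.35 (SE) in these comparisons (adjusted p of 0.118 and 0.295, limma). For PDE4B in TH vs. YH, leaving out single libraries gave adjusted p of 0.0323 (without YL2) to 0.558 (without YH1) in limma, and 0.0330 without YL1. For both genes TH and YL2 were low together, as for RYR2 and PLN.

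**Figure D4:**
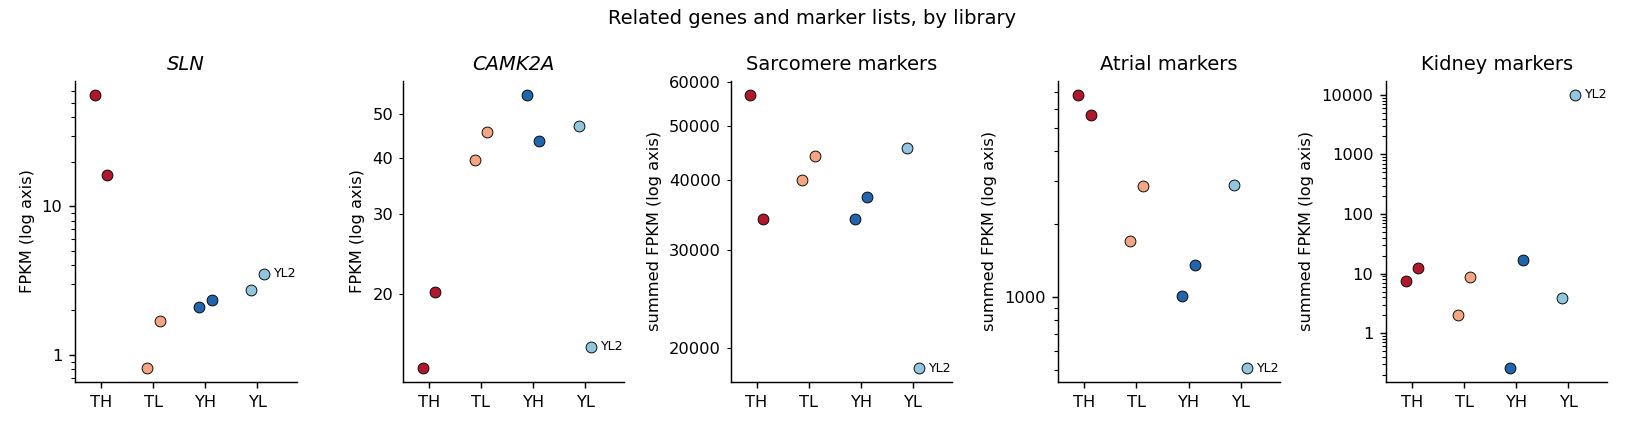
SLN and CAMK2A in FPKM, and summed FPKM of sarcomere, atrial and kidney markers (log axes), in each library by group; points are libraries and YL2 is marked. SLN and the atrial sum are highest in TH, the sarcomere sum is lowest in YL2 at 18396 FPKM, and the kidney sum is highest there at 10036 FPKM.

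At the cell membrane, 7 of 15 tested genes of calcium entry and exit were higher and 8 lower in TH than in YH, with a median of -0.02, and 1 higher at an unadjusted p under 0.05, near the 7.71% of all genes tested. Among the most abundant were the sodium pump regulator FXYD1 (166 to 443 FPKM), the sodium pump subunit ATP1B1 (183 to 411 FPKM) and the calcium pump ATP2B4 (7.63 to 29.9 FPKM). ATP1B1 was highest in YL2, where FXYD1 and ATP2B4 were lowest. Like the members, none of the 15 was called in limma.

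The genes whose level followed the mean of the standardized member values most closely over the 8 libraries were INPP4B (r = 0.99), RBPMS (r = 0.99), SUCLA2 (r = 0.98), CLCN4 (r = 0.98) and KIF1C (r = 0.97). These coefficients describe 8 points that share YL2, and without it they were 0.96, 0.90, 0.94, 0.92 and 0.79. Among the members, r with that mean ranged from 0.96 for RYR2 to 0.18 for SLC8A1, and each of these values is raised because the mean includes the gene itself. Without YL2, RYR2 (0.89), PLN (0.89) and HRC (0.92) had the highest values, CAMK2D was at 0.39 (0.91 with YL2), SLC8A1 at 0.27 and CASQ2 at 0.22 (0.85 with YL2), and JPH2 and TRDN were at -0.16 each.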

How the data were processed

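The authors aligned reads to Sscrofa10.2 with TopHat 2.0.9 and computed FPKM with Cufflinks, as their methods state. The deposited table gives FPKM and a signal per gene and library, reads scaled by the authors by 1 factor per library. In each library this signal moves in steps, and division by that step made 99.8% to 99.9% of low values (above 0 and nearest to 20 steps or fewer) whole to within 0.1, which gave the reads quoted for depth. Another 8 columns, group means and ratios, were not used. The descriptions of YL1 and YL2 point to the TL data, against their titles and breed labels, which were followed here.

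FPKM was tested with limma 3.58.1 (R 4.3.3) on log2(FPKM + 1), with a term per group, a variance trend and all 8 libraries. Genes that reached 1 FPKM in 2 or more libraries, 11913 in all, entered the fit, all 8 members among them, and p-values were adjusted by Benjamini-Hochberg over all of them. A gene was called where its log2 change exceeded 1 in either direction with an adjusted p under 0.01. The pseudocount of 1 shrinks the changes of genes at low levels. The code of the fit was checked beforehand on simulated data. Log2 ratios of members were compared with exact permutation tests over 70 splits. Other genes were named by a fixed rule: of each calcium list the 4 genes with the highest mean FPKM and every called gene, and the 5 genes most like the members. Some genes that this rule names are not reported here. Members and lists were chosen with earlier results of these data known. No genome or sequence table was used.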

Additional observations from a re-analysis of the deposited data

Results flagged for a closer look

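The libraries of SLC8A1 separated the breeds in opposite directions at the 2 altitudes in FPKM. Both TH libraries were below both YH libraries (log2 fold change -1.78), and both TL libraries were above both YL libraries (0.27 ± 0.68, SE). The latter difference is within its error and was 0.04 on the scaled reads. The difference between these differences was -2.05 ± 0.96 (SE), with an adjusted p of 0.495 (limma). Without TH2 it was -3.23 (adjusted p = 0.0465, limma) and without TH1 it was -0.87. The values rest on 4 to 40 reads per library. Groups of 2 libraries were not searched for libraries far from the others.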

How the results depend on the processing

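No member was called under any setting run with an adjusted p. At an unadjusted p under 0.05 and any fold, the count was 1 in TH to YH and 1 for breed. Of 39 single differences followed, 26 kept their sign in every setting, although several settings change the error or the threshold and cannot change a fold change. With FPKM set to a sum of 1000000 per library, JPH2 was at -0.44 and TRDN at -0.16 in TH to YH, SLC8A1 at -0.06 in TL to YL and JPH2 at -0.08 for breed. This scaling moved the median of all genes from -0.03 to -0.50 in TH to YH and from -0.01 to -0.39 for breed. The pseudocount, added after the scaling, draws these medians toward 0. With sarcomere-marker scaling, added after seeing the data, RYR2 was at -0.07, CAMK2D at -0.02 and SLC8A1 at -0.30 in TL to YL, with all genes at -0.49. Leaving out 1 library gave -0.57 to 0.15 for CASQ2 in TH to YH, -2.10 to 0.27 for SLC8A1 and -0.06 to 1.37 for TRDN in TH to TL, -0.18 to 1.20 for RYR2 and -0.03 to 1.18 for CAMK2D in TL to YL, -0.06 to 1.32 for RYR2 and -0.01 to 1.31 for CASQ2 in YH to YL, -0.36 to 0.33 for RYR2 for breed (0.05 on scaled reads), and -0.03 to 1.41 for TRDN in the interaction. The cause of these changes was not tested. Adjusted p fell under 0.05 for members only without TH2 (SLC8A1 in TH to YH, 0.0419, and interaction, 0.0465) or without YL1 (RYR2 and CAMK2D in both comparisons with YL, and RYR2 in the interaction, 0.0259). With a replicate block, 0 members were called in each comparison, and replicate numbers did not pair the libraries (correlations of deviations between groups of -0.08 to 0.12). The planned count tests with edgeR and DESeq2 were not run, since a few scaled values are not whole reads, and limma on scaled reads was added, with 0 members called. The 2 planned ratios with ATP2A2 could not be computed. The number of libraries, 2 per group, limits every test, and the reads of SLC8A1 limit its values.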

Other observations

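Of 7 tested genes of mitochondrial calcium uptake and release, 4 were higher and 3 lower in TH than in YH, with a median log2 fold change of 0.03, and none was called in limma (0.0336% of all genes tested were), with 1 higher at an unadjusted p under 0.05 (7.71% of all genes tested). The outer membrane channels VDAC2 (219 to 500 FPKM) and VDAC1 (182 to 304 FPKM) were the most abundant, followed by the uniporter subunit SMDT1 (12.1 to 38.2 FPKM). VDAC2 was at 286 and 332 FPKM (TH), 395 and 394 (TL), 382 and 500 (YH), 370 and 219 (YL). In FPKM both TH libraries were below the TL and YH libraries and YL1, as for RYR2, PLN and 11.9% of all genes tested.

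Of the skeletal muscle forms of the members' families, ATP2A1 and RYR1 were near 0. ATP2A1, the pump of fast skeletal muscle, reached at most 0.065 FPKM and RYR1, its release channel, at most 0.0408 FPKM. In contrast, CASQ1, the calsequestrin of fast skeletal muscle, was at 3.82 to 36.1 FPKM, with the highest value in TL2, where CASQ2 was at 219 FPKM.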
